A study of Mus musculus with 27 samples.

Results

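Kdr, Flt1, Tek, Tie1, Cdh5, Pecam1, Etv2, Tal1, Lmo2 and Runx1 are genes of the endothelium and of the haemogenic cells that arise from it, and they were followed by RNA-Seq in mouse embryos that lack functional DNMT3B. The 10 genes were chosen by name, and all were found among the 24065 genes of the count table. They comprise 6 genes for receptors and surface proteins and 4 genes for transcription factors. The study collected 3 WT and 3 Dnmt3b-/- whole embryos at E8.5, all on the C57BL/6J background and untreated. The embryos were littermates, with 1 library for each. The Dnmt3b-/- embryos were homozygous for a catalytically inactive allele, made by crossing mice with a floxed Dnmt3b gene to an ACTB-Cre deleter line, and came from matings between heterozygotes. The remaining 21 samples of the series are methylation libraries and were not analysed here. The question was how the levels of these genes differ between the genotypes at a stage that precedes the death of Dnmt3b-/- embryos, which is known to come later with vascular defects.

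At this stage the first vessels assemble from mesodermal precursors, and blood forms with them in the yolk sac. KDR and FLT1 are receptors of vascular endothelial growth factors: KDR carries most of the growth signal, whereas FLT1 binds the ligand tightly and limits it. TEK is the receptor of the angiopoietins, and TIE1 is a related receptor without a ligand of its own that modulates TEK. CDH5 (VE-cadherin) and PECAM1 hold endothelial cells together at their junctions. ETV2 drives mesoderm towards endothelium and blood, TAL1 and LMO2 act together in one DNA-binding complex at the start of blood formation, and RUNX1 is needed for haemogenic endothelium to give rise to blood stem cells.

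The libraries held 41489332 to 58470286 counts on genes in WT and 42424368 to 47788062 in Dnmt3b-/- embryos. Values are given as normalized counts, which are raw counts scaled with the TMM method to a common library size, and a limit of 3 raw counts equals 2.377 to 3.501 normalized counts. All 10 genes lay above this limit in all 6 libraries. Dnmt3b itself had 7287, 14003 and 6301 normalized counts in WT embryos 1, 2 and 3 and 4076, 4557 and 4756 in Dnmt3b-/- embryos 1, 2 and 3, with a log2 fold change of -1.04 (SE 0.27, adjusted p = 0.0169). The count covers all exons of the gene, the deleted ones and the others together. Leaving out any 1 of the 3 Dnmt3b-/- libraries gave an adjusted p of 0.0555 to 0.0613 for this gene. Without WT embryo 2, the highest of the 6, the log2 fold change was -0.61 (adjusted p = 0.00260), and with a correction for GC content and exon length it was -0.85 (adjusted p = 0.0629). WT embryo 2 stood apart from the other libraries in markers of yolk sac endoderm. It also had the lowest sum of primitive erythroid markers, with Dnmt3b-/- embryo 3 next to it, as described with those markers.

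Among the 10 genes, Kdr fell in Dnmt3b-/- embryos and no other gene passed the test, which was the quasi-likelihood test of edgeR at a Benjamini-Hochberg adjusted p below 0.05 over 15114 genes. Kdr was thus 1 of 10 genes, beside 35.7% of all genes tested that passed in either direction and 18.1% that passed with lower counts in Dnmt3b-/- embryos. None of the 10 genes changed by a fold above 2 at this threshold, which 5.9% of all genes did (3.78% lower and 2.12% higher). Of all genes that changed by such a fold, 64.1% were lower in Dnmt3b-/- embryos, against 74.3% with scaling by total counts and 29.5% with a correction for GC content and exon length. At an unadjusted p below 0.05, 4 of the 10 genes were counted (Kdr, Tie1, Etv2 and Lmo2), beside 45.8% of all genes tested. DESeq2 passed the same 4 genes at an adjusted p below 0.05, beside 40.2% of all genes. The median log2 fold change of Dnmt3b-/- over WT was -0.28 for the 10 genes and -0.03 for all genes tested. For 7 of the 10 genes the log2 fold change was negative, as for 52.1% of all genes. The counts of the genotypes did not overlap for 4 of the 10 genes, as for 51.8% of all genes. Of these, Kdr, Tie1 and Etv2 were lower in Dnmt3b-/- embryos and Lmo2 was higher, beside 26.5% and 25.3% of all genes.

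**Figure D1:**
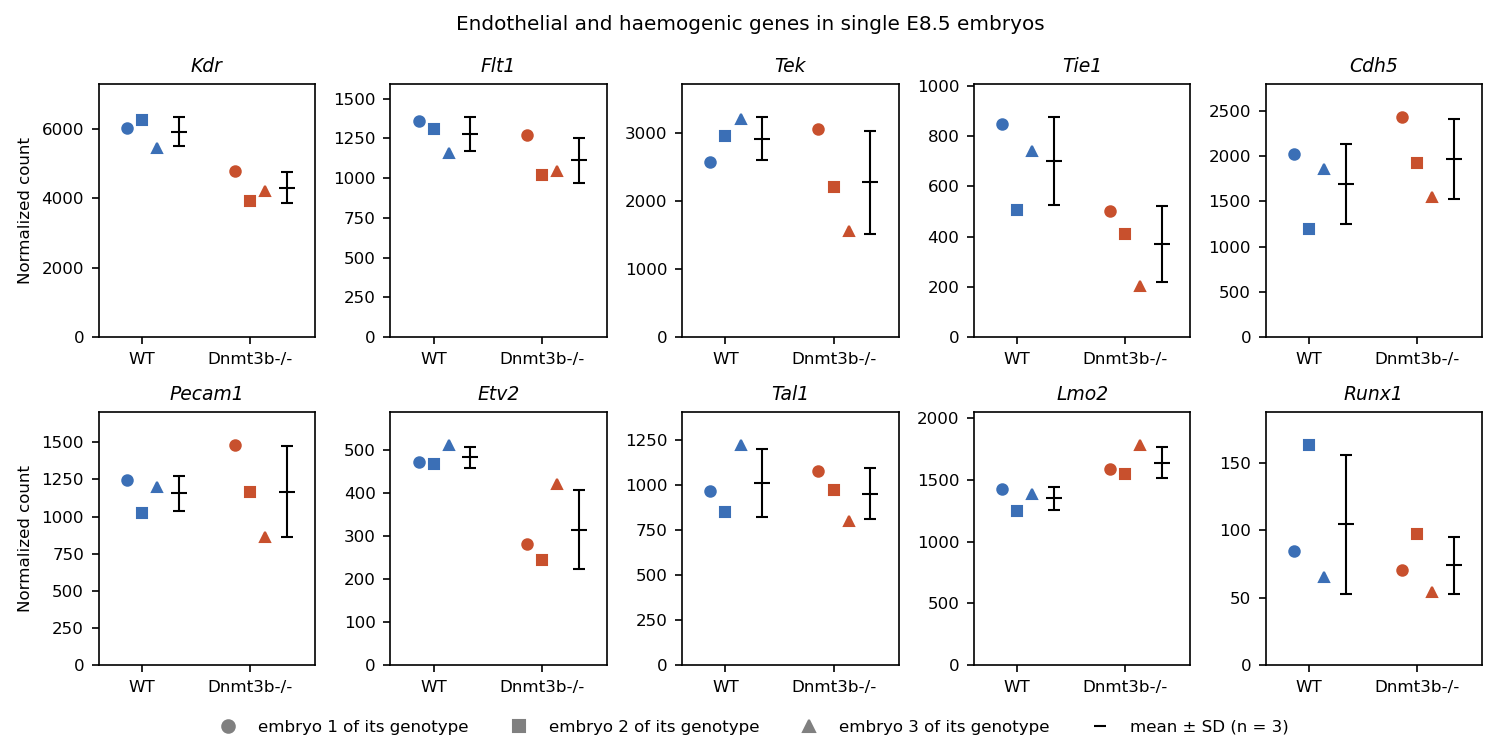
Normalized counts of the 10 genes (y axis, starting at 0) in each of 3 WT and 3 Dnmt3b-/- embryos at E8.5, with the mean and SD of each genotype (n = 3) at the side. Kdr, Tie1 and Etv2 lie below the lowest WT embryo in every Dnmt3b-/- embryo, Lmo2 lies above the highest, and the other 6 genes overlap.

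The sequences just upstream of Kdr, Tie1 and Etv2 are shown because these genes lay lower in all Dnmt3b-/- embryos. The same held for 26.5% of all genes tested, and of the genes shown only Kdr passed the test. DNMT3B methylates cytosines in CpG dinucleotides, in which the windows differ. A link between the CpG content of the windows and expression was not tested. Each line gives the 250 bases before a RefSeq transcription start (GRCm38.p6, a patch release of the build mm10), 5′ to 3′ on the strand of the gene, with the CpG dinucleotides in capitals.
Kdr, chr5:75978456-75978705, minus strand: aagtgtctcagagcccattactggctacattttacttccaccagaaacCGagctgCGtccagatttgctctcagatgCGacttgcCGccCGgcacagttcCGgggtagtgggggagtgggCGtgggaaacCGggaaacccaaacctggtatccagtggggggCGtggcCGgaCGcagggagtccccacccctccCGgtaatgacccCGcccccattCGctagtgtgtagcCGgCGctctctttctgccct
Tie1, chr4:118489850-118490099, minus strand: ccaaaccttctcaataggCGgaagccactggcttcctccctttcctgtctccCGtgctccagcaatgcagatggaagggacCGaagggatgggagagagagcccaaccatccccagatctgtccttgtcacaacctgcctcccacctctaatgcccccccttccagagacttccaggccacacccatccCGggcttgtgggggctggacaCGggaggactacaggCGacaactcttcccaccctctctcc
Etv2, chr7:30635853-30636102, minus strand: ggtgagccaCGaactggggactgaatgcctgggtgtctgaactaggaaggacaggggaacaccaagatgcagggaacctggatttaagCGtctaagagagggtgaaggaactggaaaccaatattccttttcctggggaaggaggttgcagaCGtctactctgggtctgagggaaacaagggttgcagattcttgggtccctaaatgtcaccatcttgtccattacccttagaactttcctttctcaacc

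Kdr held 16 CpG dinucleotides in this window, Tie1 6 and Etv2 3, and the median over 32841 promoters of the same length was 6. The Kdr and Etv2 windows lie inside longer models of the same genes, outside their exons but for 1 base in Etv2, and the Tie1 window lies outside the gene. Of the 10 genes, 7 were found in the promoter table, with 9 starts in all. The other windows held 23 CpG dinucleotides in Flt1, 2 in Tek, 6 and 16 in Tal1, and 27 and 2 in Runx1. The letters GGAA, the core bound by ETS factors such as ETV2, were found on either strand in all 9 windows, and in 93.45% of all promoters. GATAA, a core bound by GATA factors, was found on either strand in 1 of the 9 windows, and in 22.58% of all promoters. Methylation of these windows was not analysed here.

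Kdr, the main receptor of vascular endothelial growth factor A, lies on chromosome 5 from 75932827 to 75979072 on the minus strand (GRCm38). Its normalized counts were 6004, 6260 and 5447 in WT embryos 1, 2 and 3 and 4774, 3922 and 4219 in Dnmt3b-/- embryos 1, 2 and 3. No Dnmt3b-/- embryo reached the lowest WT embryo. The mean fell from 5904 ± 416 to 4305 ± 433 (SD, n = 3 each), which is -0.46 on the log2 scale (SE 0.09, adjusted p = 0.00633), so that expression fell by 27.1%. The 14 other ways of processing and leaving out libraries gave log2 fold changes of -0.53 to -0.39 and an adjusted p below 0.05 each time. In whole embryos, fewer endothelial cells and less RNA in each cell cannot be told apart, for this gene or for those that follow.

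Flt1, the decoy-like sister receptor on the same chromosome (147561604 to 147726438, minus strand), did not pass the test. Normalized counts of Flt1 were 1360, 1309 and 1155 in WT and 1274, 1017 and 1046 in Dnmt3b-/- embryos. Dnmt3b-/- embryo 1 lay between the WT embryos, so the genotypes overlapped. The log2 fold change was -0.20 (SE 0.12, adjusted p = 0.251). Kdr exceeded Flt1 in every embryo when both were expressed per length as FPKM (fragments per kilobase of exon, scaled to library size), by 6.31, 6.83 and 6.74 times in WT and by 5.35, 5.51 and 5.76 times in Dnmt3b-/- embryos. These ratios did not overlap between the genotypes, and the difference between the changes of both genes was not tested. The size of the ratios depends on the lengths used. These were the merged exons of all curated RefSeq transcripts, 7673 bases for Kdr and 10961 for Flt1.

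Tie1 lay lower in all Dnmt3b-/- embryos but missed the threshold, and Tek overlapped between the genotypes. Normalized counts of Tie1 (chromosome 4, 118471191 to 118489849, minus strand) were 849, 506 and 741 in WT and 500, 411 and 205 in Dnmt3b-/- embryos. WT embryo 2 and Dnmt3b-/- embryo 1 nearly met, and Dnmt3b-/- embryo 3 was by far the lowest. The means were 699 ± 175 and 372 ± 151 (SD, n = 3 each), with a log2 fold change of -0.91 (SE 0.32, adjusted p = 0.0558), which was the most negative among the 10 genes. The value passed in 6 of the 14 alternatives, with adjusted p of 0.0100 by DESeq2, 0.0372 without Dnmt3b-/- embryo 1 and 0.0233 without WT embryo 2. Leaving out any other library gave an adjusted p of 0.0981 to 0.168, and without Dnmt3b-/- embryo 3 the log2 fold change was -0.60. The correction for GC content and exon length moved it to -0.42 (adjusted p = 0.304).

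Tek (chromosome 4, 94739086 to 94874976, plus strand) encodes the angiopoietin receptor. Its normalized counts were 2579, 2956 and 3206 in WT and 3063, 2206 and 1556 in Dnmt3b-/- embryos. Dnmt3b-/- embryo 1 lay within the WT range and embryos 2 and 3 lay below it. The log2 fold change of Tek was -0.36 (SE 0.22, adjusted p = 0.232), and 1 of the 14 alternatives passed. Leaving out Dnmt3b-/- embryo 1 gave -0.62 (adjusted p = 0.0276), and leaving out Dnmt3b-/- embryo 3 gave -0.13 (adjusted p = 0.561). The ratio of Tie1 to Tek in FPKM was 0.399, 0.208 and 0.280 in WT and 0.198, 0.226 and 0.160 in Dnmt3b-/- embryos, and the genotypes overlapped.

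The junction genes Cdh5 and Pecam1 did not pass the test, and both overlapped between the genotypes. Normalized counts of Cdh5 (chromosome 8, 104101613 to 104144504, plus strand) were 2026, 1194 and 1858 in WT and 2429, 1929 and 1553 in Dnmt3b-/- embryos. WT embryo 2 was the lowest and Dnmt3b-/- embryo 1 the highest of the 6. The log2 fold change of 0.22 (SE 0.22, adjusted p = 0.474) became 0.02 without WT embryo 2. Normalized counts of Pecam1 (chromosome 11, 106654213 to 106715281, minus strand) were 1243, 1024 and 1202 in WT and 1481, 1162 and 863 in Dnmt3b-/- embryos. The Dnmt3b-/- embryos spanned a wider range than the WT embryos on both sides. The log2 fold change of Pecam1 was 0.02 (SE 0.19, adjusted p = 0.959), and its sign was negative in 5 of the 14 alternatives, with scaling by total counts among them.

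Of the transcription factor genes, Etv2 lay lower and Lmo2 higher in all Dnmt3b-/- embryos, and neither passed the test. Normalized counts of Etv2 (chromosome 7, 30633616 to 30636509, minus strand) were 471, 467 and 511 in WT and 282, 243 and 419 in Dnmt3b-/- embryos. The WT embryos lay close together, and Dnmt3b-/- embryo 3 lay nearer to them than the other two. The means were 483 ± 24 and 315 ± 93 (SD, n = 3 each), with a log2 fold change of -0.62 (SE 0.21, adjusted p = 0.0508). Without Dnmt3b-/- embryo 3 the adjusted p was 0.00876, without any other 1 library it was 0.0625 to 0.156, and Etv2 passed in 7 of the 14 alternatives. With the correction for GC content and exon length its log2 fold change was -0.02 (adjusted p = 0.965).

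Normalized counts of Lmo2 (chromosome 2, 103957903 to 103981878, plus strand), the bridging partner of TAL1, were 1427, 1249 and 1386 in WT and 1590, 1545 and 1783 in Dnmt3b-/- embryos. The groups did not overlap, and the means were 1354 ± 93 and 1639 ± 126 (SD, n = 3 each). The log2 fold change was 0.28 (SE 0.10, adjusted p = 0.0673). DESeq2 gave an adjusted p of 0.0308, and the correction for GC content and exon length gave 0.45 (adjusted p = 0.0332).

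Tal1 and Runx1 did not pass the test in any of the 14 alternatives. Normalized counts of Tal1 (chromosome 4, 115056426 to 115071755, plus strand) were 968, 851 and 1220 in WT and 1079, 973 and 801 in Dnmt3b-/- embryos, with a log2 fold change of -0.09 (SE 0.17, adjusted p = 0.701) whose sign turned positive in 3 alternatives, the correction for GC content and exon length among them. Tal1 shares 250 exon bases with the antisense gene Gm33786 and Lmo2 shares 3 with Gm38515, and the strand setting of the counting is not given in the sources used here. Runx1 (chromosome 16, 92601466 to 92826074, minus strand) was the least expressed of the 10 genes. Its normalized counts were 84.8, 163 and 65.5 in WT and 70.1, 96.9 and 54.4 in Dnmt3b-/- embryos, which overlapped, and WT embryo 2 was the highest. The log2 fold change of Runx1 was -0.49 (SE 0.40, adjusted p = 0.375), and it became -0.03 without WT embryo 2.

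**Figure D2:**
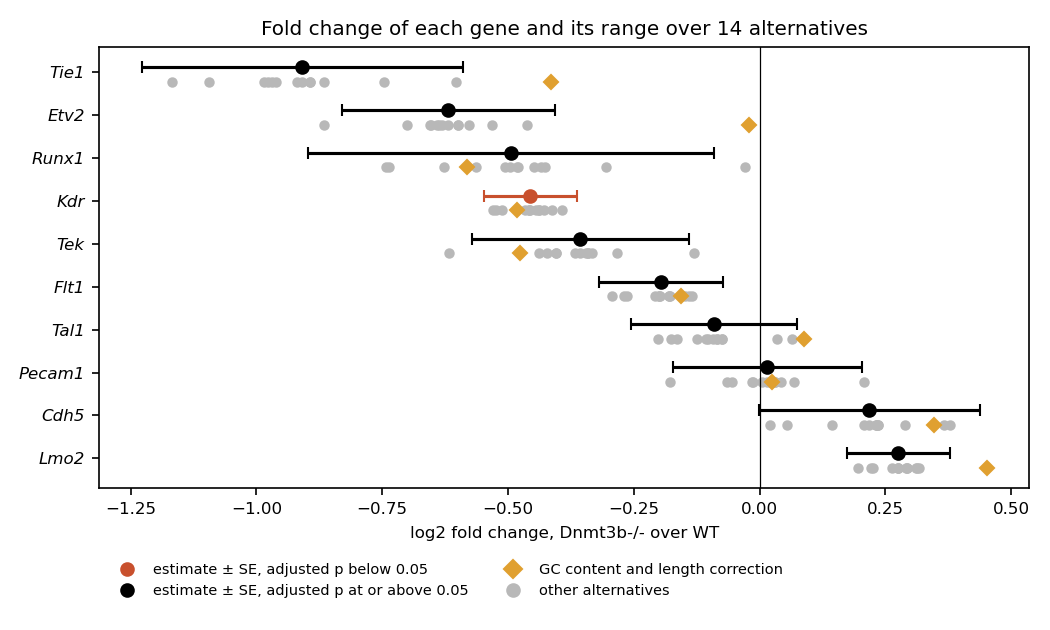
Log2 fold change between the genotypes, Dnmt3b-/- over WT (axis in log2 units), for each of the 10 genes, with its standard error and the range over the 14 alternatives. Kdr stays between -0.53 and -0.39, whereas the ranges of Pecam1 and Tal1 cross 0.

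Per length, Kdr and Lmo2 led the 10 genes in WT embryos, with 15.98 ± 1.13 and 14.80 ± 1.02 FPKM (mean ± SD, n = 3). Tek followed with 12.87 ± 1.39, Etv2 with 9.57 ± 0.48, Cdh5 with 8.82 ± 2.29 and Pecam1 with 7.21 ± 0.72 FPKM. The lowest levels were those of Tal1 (4.92 ± 0.92), Tie1 (3.74 ± 0.94), Flt1 (2.41 ± 0.20) and Runx1 (0.29 ± 0.15 FPKM). Between neighbours in this order, the embryos did not overlap for Tek and Etv2, Pecam1 and Tal1, Tie1 and Flt1, and Flt1 and Runx1. The ranges of the other neighbours overlapped, and their differences within each embryo were not tested. In Dnmt3b-/- embryos Lmo2 stood first with 17.92 ± 1.38 FPKM and did not overlap with Kdr at 11.65 ± 1.17 FPKM. Below them, neighbours did not overlap for Tal1 (4.62 ± 0.68) and Flt1 (2.11 ± 0.27 FPKM) and for Tie1 (1.99 ± 0.81) and Runx1 (0.21 ± 0.06 FPKM).

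For 7 of the 10 genes the Dnmt3b-/- embryos varied more among themselves than the WT embryos, and for Cdh5, Tal1 and Runx1 less. The median coefficient of variation over the 10 genes was 24.4% in Dnmt3b-/- and 10.4% in WT embryos. Over genes that averaged 100 counts or more, a set without Runx1, it was 9.59% and 8.36%. Among the Dnmt3b-/- embryos, embryo 1 was the highest for 7 of the 10 genes and embryo 3 the lowest for 6. Among the WT embryos, embryo 2 was the lowest for 6 genes. The difference in spread was not tested. How many of all genes varied more in Dnmt3b-/- embryos, or had the same highest or lowest embryo, was not computed.

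Markers of other cell types differed between embryos of one genotype. The 8 primitive erythroid markers, which mark the first red cells, summed to 1522, 400 and 2253 FPKM in WT and 1443, 1096 and 504 FPKM in Dnmt3b-/- embryos. The 8 yolk sac endoderm markers summed to 412, 1399 and 202 FPKM in WT and 451, 266 and 128 FPKM in Dnmt3b-/- embryos. WT embryo 2 was thus low in erythroid and high in endoderm markers, and Dnmt3b-/- embryo 3 was the lowest of its genotype in both. Neither list had a gene that passed the test. The most abundant erythroid markers were Hbb-bh1 (log2 fold change -0.84, adjusted p = 0.229) and Hba-x (0.13, 0.871), which encode embryonic globins. The most abundant endoderm markers were the apolipoprotein genes Apoa1 (-0.87, 0.355) and Apoc2 (-2.04, 0.0871). Log2 fold changes ranged from -2.25 to 0.48 over the erythroid markers and from -2.22 to -0.30 over the endoderm markers. All 8 yolk sac endoderm markers had a negative log2 fold change, with a median of -1.03. Without WT embryo 2 the value was 0.33 for Apoa1 and -0.34 for Apoc2, -0.32 for Hba-x and -1.23 (adjusted p = 0.0307) for Hbb-bh1.

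Cardiomyocyte markers summed to 366 to 674 FPKM in WT and 368 to 563 FPKM in Dnmt3b-/- embryos, and of 6 markers Tnnt2 rose (log2 fold change 0.62) and Nkx2-5 fell (-0.79, but 0.02 with an adjusted p of 0.963 with the correction for GC content and exon length). Their most abundant genes, Myl7 and Actc1, had log2 fold changes of -0.72 (adjusted p = 0.05005) and -0.23 (adjusted p = 0.578). Of 5 smooth muscle and pericyte markers, which summed to 92.7 to 153 FPKM in WT and 75.3 to 112 FPKM in Dnmt3b-/- embryos, Tagln (-0.71) and Pdgfrb (-0.54) fell, and Acta2 had a log2 fold change of -0.22 (adjusted p = 0.425). With the correction for GC content and exon length, Tagln had -0.58 (adjusted p = 0.0971) and Pdgfrb -0.21 (adjusted p = 0.289). The 4 macrophage markers in the table summed to 1.90 to 2.14 FPKM in WT and 2.36 to 3.68 FPKM in Dnmt3b-/- embryos without overlap. Of the 3 that were tested, Cd68 rose (0.90, adjusted p = 0.0342), and Fcer1g had 0.60 (adjusted p = 0.449). Trophoblast and decidua markers summed to 4.71 to 7.77 FPKM in WT and 5.96 to 9.65 FPKM in Dnmt3b-/- embryos, nearly all from Hand1 (log2 fold change 0.39, adjusted p = 0.240, and 0.83, adjusted p = 0.0303, with the correction for GC content and exon length), which other embryonic tissues also express. Gcm1 lay at 0 to 13.5 normalized counts, and Prl3d1, Prl8a2, Tpbpa and Prl2c2 were at 0 in all libraries. The 6 receptor and surface genes summed to 53.1, 47.8 and 52.2 FPKM in WT and 53.4, 41.8 and 34.8 FPKM in Dnmt3b-/- embryos, and the 4 transcription factor genes to 27.5 to 31.4 and 26.7 to 31.8 FPKM. Beside the markers that rose or fell, 17.6% of all genes tested rose and 18.1% fell. The part of the cell type makeup in the values of the 10 genes was not tested.

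**Figure D3:**
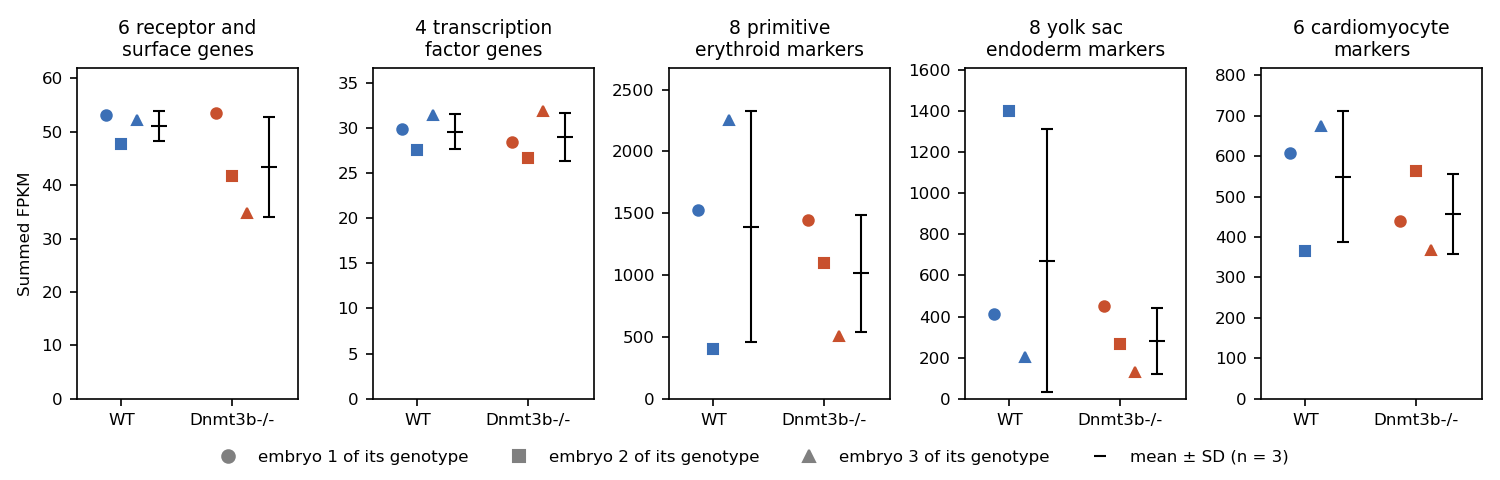
Summed FPKM (y axis, starting at 0) of the 6 receptor and surface genes, the 4 transcription factor genes and 3 lists of markers of other cell types in each embryo, with the mean and SD of each genotype (n = 3). WT embryo 2 has the highest sum of yolk sac endoderm markers and the lowest of erythroid markers.

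Exons of the 10 genes ranged in GC content from 46.6% (Runx1) to 59.2% (Etv2), with Tie1 at 58.0% and Kdr at 47.7%. Over all genes, those that passed with lower counts in Dnmt3b-/- embryos had a median GC content of 55.7% and those that passed with higher counts 45.0%. The correction for GC content and exon length removes a smooth trend on both from each library. Kdr kept its value (-0.48, adjusted p = 0.00682), Lmo2 passed, and Tie1 and Etv2, the most GC-rich of the 10 genes, moved towards 0. The median log2 fold change of the 10 genes was -0.09 with the correction.

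**Figure D4:**
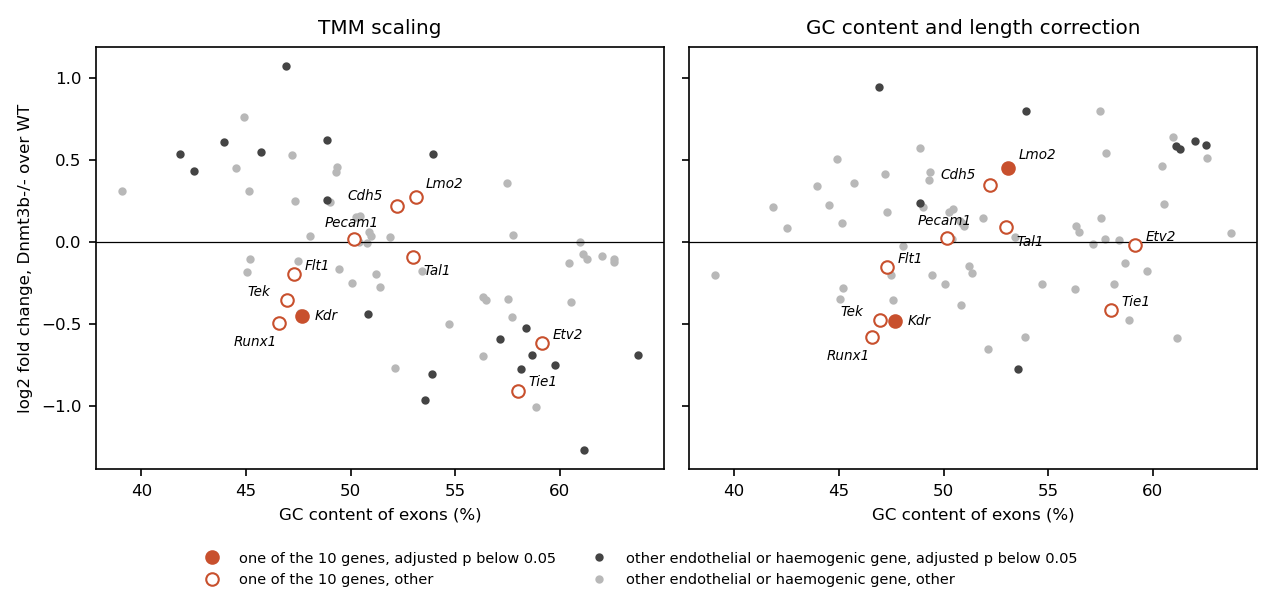
Log2 fold change between the genotypes, Dnmt3b-/- over WT (y axis), against the GC content of exons in percent (x axis) for the 10 genes and the other endothelial and haemogenic genes, with TMM scaling on the left and with the GC content and length correction on the right. Etv2 and Tie1 lie at 59.2% and 58.0% GC and move from -0.62 to -0.02 and from -0.91 to -0.42, while Kdr at 47.7% GC moves from -0.46 to -0.48.

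Other genes listed for their roles in endothelial and haemogenic cells moved in both directions. The libraries come from whole embryos, so these changes cannot be assigned to those cells. Of 67 further endothelial and haemogenic genes, 62 were tested, 8 rose and 10 fell, beside 17.6% and 18.1% of all genes tested, and their median log2 fold change was -0.10. The groups did not overlap for 20 of the 62, against 51.8% of all genes. The count of genes that fell was 1 with the correction for GC content and exon length, beside 10.54% of all genes with that correction. It was 2, 5 and 4 without Dnmt3b-/- embryo 2, Dnmt3b-/- embryo 3 and WT embryo 1. In the same 3 fits, all genes gave 459, 391 and 453 lower at a fold above 2, against 571 with all libraries. The share of all genes that passed in these fits was not computed. The count of genes that rose was 7 with the correction, beside 12.36% of all genes. Of these 7 genes, 3 (Foxc1, Jag1 and Myb) were among the 8, and Vegfb, Foxc2, Ldb1 and Tcf3 were not. The count of genes that rose was 5 to 8 without any 1 library, with 5 without Dnmt3b-/- embryo 2 or WT embryo 1. Without these 2 embryos in turn, all genes gave 270 and 259 higher at a fold above 2, against 320 with all libraries.

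None of 7 ligand genes passed, beside 35.7% of all genes tested. Among them were Vegfa (log2 fold change 0.03, adjusted p = 0.805), the ligand of KDR and FLT1, and Vegfb (-0.10, adjusted p = 0.599). With the correction for GC content and exon length Vegfb passed with higher counts in Dnmt3b-/- embryos (0.59, adjusted p = 0.00869). Of 8 further receptors and co-receptors, S1pr1 rose (0.62, adjusted p = 0.0367) and Aplnr fell (-0.44, adjusted p = 0.0381), beside 17.6% and 18.1% of all genes. The abundant co-receptors Nrp1 (-0.10, adjusted p = 0.587) and Nrp2 (-0.01, adjusted p = 0.952) did not pass. Normalized counts of Aplnr, the apelin receptor, were 3078, 4394 and 3210 in WT and 2575, 2438 and 2856 in Dnmt3b-/- embryos. Neither S1pr1 (0.57, adjusted p = 0.0696) nor Aplnr (-0.39, adjusted p = 0.0933) passed with the correction for GC content and exon length.

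Of 13 surface and junction genes, 4 fell and none rose, beside 18.1% and 17.6% of all genes tested. Normalized counts of Egfl7, a secreted protein of endothelial cells, were 1912, 1564 and 2120 in WT and 1360, 1098 and 868 in Dnmt3b-/- embryos, with a log2 fold change of -0.75 (SE 0.18, adjusted p = 0.0125). Those of Esam, a tight junction adhesion molecule, were 456, 317 and 469 in WT and 236, 238 and 161 in Dnmt3b-/- embryos, with -0.97 (SE 0.23, adjusted p = 0.0122). Icam2 (-0.81) and Rasip1 (-0.69) fell as well. With the correction for GC content and exon length, Esam passed, whereas Egfl7 had -0.18 (adjusted p = 0.355), Icam2 -0.58 (adjusted p = 0.134) and Rasip1 0.05 (adjusted p = 0.784). Emcn, a sialomucin of veins and capillaries, had 0.76 (SE 0.45, adjusted p = 0.223).

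Of 14 further transcription factor genes, 3 rose and none fell, beside 17.6% and 18.1% of all genes tested. Normalized counts of Fli1, an ETS factor, were 2237, 1938 and 2355 in WT and 3659, 2782 and 3519 in Dnmt3b-/- embryos (log2 fold change 0.61, adjusted p = 0.00614). Foxc1 (0.54, adjusted p = 0.00578) and Mef2c (0.53, adjusted p = 0.00200) rose too, and both are also expressed outside endothelium. Of these 3 genes, Foxc1 passed with the correction for GC content and exon length, whereas Fli1 had 0.34 (adjusted p = 0.0929) and Mef2c 0.21 (adjusted p = 0.0912). Ets2, the most abundant of the list, had 0.03 (adjusted p = 0.756).

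Among 11 arterial and Notch genes, 4 fell and 2 rose, beside 18.1% and 17.6% of all genes tested. Notch4, a Notch receptor of endothelium, had 361, 237 and 295 normalized counts in WT and 169, 140 and 60.1 in Dnmt3b-/- embryos, which is a log2 fold change of -1.27 (SE 0.36, adjusted p = 0.0265) and the largest fall of the list. Notch1 (-0.60), the venous receptor gene Ephb4 (-0.53, adjusted p = 0.00451) and Unc5b (-0.69) fell, whereas the ligand gene Jag1 (0.26) and the Notch target gene Hey2 (0.55) rose. The arterial ligand gene Efnb2 had 0.16 (adjusted p = 0.371). With the correction for GC content and exon length, Jag1 passed, whereas Notch4 had -0.58 (adjusted p = 0.207), Notch1 -0.02, Ephb4 0.01, Unc5b -0.13 and Hey2 0.36, none of which passed.

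Among 9 tested haemogenic and early blood regulators, Myb (1.07) and Cbfb (0.43) rose and Itga2b (-0.78) fell, beside 17.6% and 18.1% of all genes. Normalized counts of Myb, a factor of blood progenitors, were 133, 165 and 123 in WT and 277, 309 and 299 in Dnmt3b-/- embryos, with an adjusted p of 0.00405 and an adjusted p below 0.05 in all 14 alternatives. Cbfb, the partner of RUNX1 with a broad expression, had 8089, 6950 and 7917 in WT and 10100.5, 10384 and 10519 in Dnmt3b-/- embryos (adjusted p = 0.00379). Tcf3, a partner of TAL1, had -0.11 (adjusted p = 0.381). With the correction for GC content and exon length, Cbfb had 0.09 (adjusted p = 0.484) and Itga2b -0.26 (adjusted p = 0.457), and Tcf3 passed with higher counts in Dnmt3b-/- embryos (0.57, adjusted p = 0.00284). Gfi1, Spi1, Ptprc and Vav1, genes of later blood cells, had a mean under 10 counts and were not tested.

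**Figure D5:**
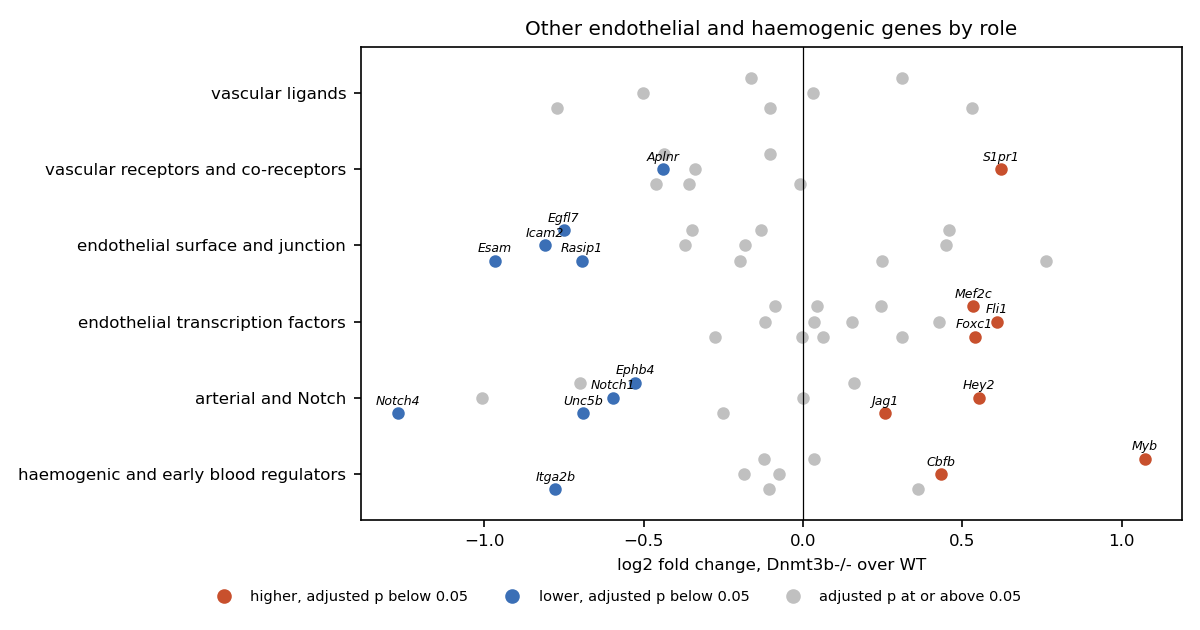
Log2 fold change between the genotypes, Dnmt3b-/- over WT (axis in log2 units), of the further endothelial and haemogenic genes, grouped by role, with those that passed the test marked. Surface and junction genes that passed lie below 0 and transcription factor genes that passed lie above 0, while arterial and Notch genes that passed lie on both sides. Of these genes, Esam, Foxc1 and Jag1 also passed with the correction for GC content and exon length, and the others did not. Over all genes tested, 18.1% passed below 0 and 17.6% above 0.

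The genes whose profile over the 6 embryos was nearest to the mean profile of the 10 genes were Kif3c, Sec14l1 and Golga2, with root mean square differences of 0.027, 0.029 and 0.031 in log2 units among 11861 genes that averaged 100 counts or more. The mean profile, centred for each gene, was 0.18, 0.08 and 0.14 in WT and 0.07, -0.13 and -0.35 in Dnmt3b-/- embryos. Tie1 was the farthest of the 10 genes from it, at 0.48, and Flt1 the nearest, at 0.11.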

How the data were processed

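RNA-Seq was performed by the authors on total RNA of 6 whole embryos, depleted of ribosomal RNA and prepared with a stranded kit. Reads were aligned to mm10 with TopHat2 2.0.12, and the deposited raw counts in RefSeq exons come from HTSeq 0.6.0. Which RefSeq release was used, and whether counting used strand, is not given in the sources used here. The authors also deposited a normalized signal, made by dividing each count by the DESeq2 1.4.5 size factor of its library, and a log2 fold change and an adjusted p-value of their own comparison. None of these was used.

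Groups and replicate numbers follow the labels. Counts were scaled with TMM and tested for genotype by quasi-likelihood (edgeR 4.0.16, R 4.3.3). Genes averaging under 10 counts were left out, which kept 15114, with Benjamini-Hochberg adjustment over all of them. The test was also run on simulated counts. These held no trend on GC content and no differences in cell makeup between embryos, so that run does not cover either. Genes passed at an adjusted p below 0.05 and were also counted at a fold change above 2. Alternatives were DESeq2 1.42.0 and limma 3.58.1 (limma-trend), other scalings and filters, a replicate block, a GC content and length correction (splines with 5 degrees of freedom) and leaving out each library. FPKM were computed from the counts and exon lengths of RefSeq (GRCm38.p6), in which 22608 genes matched by symbol, 1277 by an older symbol and 180 not at all. Limits of 3 counts cover counting error only, since reads without molecular identifiers are not independent molecules. Libraries of one genotype differed by more than sampling noise, so each counted as 1 replicate.

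The text names the 10 genes, Dnmt3b, the 2 most abundant genes of each other list and every gene called at a fold above 2, and the 3 genes nearest to the mean profile. Other genes that passed the test were named after their values were seen. The 10 genes and the lists were chosen with earlier results of these data known.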

Additional observations from a re-analysis of the deposited data

How the results depend on the processing

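Kdr passed the test with the same direction under all 14 alternatives, and Flt1, Cdh5, Pecam1, Tal1 and Runx1 passed under none. The 10 genes gave 1 gene higher in Dnmt3b-/- embryos with DESeq2. They also gave 1 with the GC content and length correction, beside 12.36% of all genes with that correction. They gave 3 lower with DESeq2, 3 with limma-trend and 3 without a filter. They gave 2 with a mean of at least 50 counts and 2 with scaling by total counts, and 1 to 3 without any 1 library. The share of all genes that passed lower was not computed for these settings, so these counts cannot be set against it. At a fold above 2, all genes gave 595 lower with DESeq2, 578 with limma-trend and 625 without a filter. They gave 509 with a mean of at least 50 counts and 710 with scaling by total counts. The other endothelial and haemogenic genes gave 1 lower with the GC content and length correction, beside 10.54% of all genes. Without any 1 library they gave 5 to 8 higher and 2 to 12 lower. In those fits all genes gave 242 to 381 higher and 391 to 774 lower at a fold above 2, and the share that passed was not computed. Over all genes, 320 were higher and 571 lower at a fold above 2, against 130 lower with the GC content and length correction, and 2654 higher and 2741 lower at an adjusted p below 0.05 alone. The sign of the log2 fold change turned for Pecam1 with limma-trend (-0.014) and with scaling by total counts (-0.055), and for Tal1 with the GC content and length correction (0.089). Leaving out 1 library gave -0.18 to 0.21 for Pecam1 and -0.20 to 0.064 for Tal1. Scaling by total counts moved the median of all genes from -0.03 to -0.11. The causes were not tested.

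The deviations of same-numbered libraries from the means of their genotypes correlated at -0.05, -0.15 and -0.01. Differently numbered libraries were not compared with them, so these values cannot decide whether replicate numbers pair the embryos. With the replicate block, 3 of the 10 genes passed with lower counts and Pecam1 had a log2 fold change of -0.013. The share of all genes that passed in that fit was not computed. At a fold above 2 it gave 516 of all genes lower, against 571 without the block.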
